A study of Mus musculus with 12 samples.

Results

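The histone H3K9 methyltransferases described here are 6 genes, Setdb1, Setdb2, Suv39h1, Suv39h2, Ehmt1 and Ehmt2, of 33641 genes listed in the deposited table. They were found by their symbols in the files of all 12 samples, and each symbol was present once in every sample. The group was selected on measured values of these data, because Setdb2 was lower in R14del-PLN than in WT-PLN hearts. Differences between genotypes are therefore given for the 6 members as a description, without a test, while differences between ventricles are given with their test.

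RNA was sequenced from the left ventricle (LV) and right ventricle (RV) of knock-in mice aged 12 to 14 weeks, with 3 samples in each of 4 groups: LV-WT, RV-WT, LV-R14del and RV-R14del. In both lines, a human phospholamban coding sequence had been placed at the start codon of mouse Pln, so the WT-PLN controls also carry human phospholamban. R14del-PLN mice were heterozygous for the allele that lacks arginine 14, and their samples are titled KO in the labels although no gene was removed. Phospholamban is the inhibitor of the calcium pump SERCA2a of the sarcoplasmic reticulum. Both lines came from chimeric males of 129/Sv-CP and C57BL/6J bred to Sox2-Cre mice, which recombine throughout the embryo proper, and the label gives the strain as C57BL/6J. The gene-level values do not separate the R14del allele from the intact one, so genotype labels were not checked against them. Nothing in the labels says that the replicates are separate mice, so the errors describe the spread between these samples.

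Methylation of lysine 9 on histone H3 (H3K9) marks heterochromatin and silenced genes, and the enzymes that write it carry a SET domain. Suv39h1 and Suv39h2 encode the pair that trimethylates H3K9 at pericentromeric repeats. Setdb1 encodes the enzyme recruited by Trim28 and KRAB zinc finger proteins to silence retroelements. Ehmt1 and Ehmt2 encode GLP and G9a, which work as a heterodimer and place mono- and dimethylation in euchromatin. Setdb2 encodes a relative of Setdb1 that has been studied mainly in macrophages and liver, where it has been linked to interferon and glucocorticoid responses.

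Setdb2 lies on chromosome 14 of GRCm38 from 59402009 to 59440884 on the minus strand (GENCODE vM21, identifier ENSMUSG00000071350.12). It lies head to head with Cab39l, which encodes a scaffold protein of the LKB1 kinase. The RefSeq starts of the genes are 83 bp apart. The 82 bases between these starts are shown because Setdb2 stood apart from both Cab39l and Setdb1, and the same number of bases directly before the start of Setdb1 is given beside them. Both are read on the minus strand of GRCm38.p6 and come from RefSeq, at chr14:59440881-59440962 and chr3:95357203-95357284. Capitals mark the CCAAT box (CCAAT, or ATTGG where it lies on the other strand) and the GC box (GGGCGG, or CCGCCC).
Setdb2 to Cab39l: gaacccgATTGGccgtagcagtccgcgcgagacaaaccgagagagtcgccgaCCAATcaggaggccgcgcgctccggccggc
before Setdb1: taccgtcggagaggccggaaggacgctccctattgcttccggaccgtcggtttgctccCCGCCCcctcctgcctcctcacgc
The stretch between Setdb2 and Cab39l was 69.5% G and C with 13 CG dinucleotides and held 2 CCAAT boxes, 1 on each strand, and no GC box. The stretch before Setdb1 was 68.3% G and C with 9 CG dinucleotides and held 1 GC box and no CCAAT box.

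In the wider RefSeq windows of 250 bases before to 50 after each start, all 6 members matched, with 8 windows in all because Suv39h1 and Ehmt2 have 2 each. The window of Setdb2 was 66.3% G and C and held 29 CG dinucleotides, against medians of 52.7% and 7 over 32851 promoters. Searched on both strands, CCAAT was present in 37.4% of all promoters and GGGCGG in 35.7%. Besides the 2 sites of Setdb2, CCAAT had 1 site in the window of Setdb1 and 2 in a window of Suv39h1. The GC box was found in windows of the other 5 members and not in that of Setdb2. The glucocorticoid response element core AGAACA (19.0% of promoters), the TATA box TATAAA (13.6%) and the D-box TTATGTAA (0.938%) were in none of the 8 windows. The E-box CACGTG (7.15%) was found in both windows of Ehmt2, and the cAMP response element TGACGTCA (1.79%) in that of Suv39h2. No motif searched contains another, and a match is a description of letters in these windows.

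All levels are in TPM (a transcript's share of all transcripts in a sample, scaled for gene length), which lets genes be set beside each other. Ehmt2 was the highest of the 6 in every group, at 9.67 to 11.8 TPM in WT-PLN and 8.67 to 9.85 TPM in R14del-PLN hearts (group means). Suv39h2 was the lowest in every group, with means of 0.218 to 0.390 TPM, and did not reach the minimum of 0.5 TPM for the main model. The position of Setdb2 differed between genotypes: it was directly below Ehmt2 in both ventricles of WT-PLN hearts and below Ehmt1 and Setdb1 as well in both ventricles of R14del-PLN hearts.

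In the LV of WT-PLN hearts, the order was Ehmt2, Setdb2, Ehmt1, Setdb1, Suv39h1, Suv39h2. There the ranges of Setdb2 and Ehmt1 overlapped, as did those of Ehmt1 and Setdb1. In the RV of WT-PLN hearts the order was the same and no neighbours in it overlapped. In R14del-PLN hearts the order was Ehmt2, Ehmt1, Setdb1, Setdb2, Suv39h1, Suv39h2 in both ventricles. Ehmt1 and Setdb1 overlapped in the LV, and Setdb2 and Suv39h1 overlapped in the RV.

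The LV-WT samples held Setdb2 at 5.03, 5.96 and 3.57 TPM (replicates 1, 2 and 3). The LV-R14del samples held 1.87, 1.92 and 2.25 TPM. Each LV-R14del sample was below each LV-WT sample, and the WT-PLN samples were the more scattered (4.85 ± 1.21 TPM against 2.01 ± 0.203 TPM, SD, n = 3 each). The mean was 2.41-fold lower in R14del-PLN hearts, a difference of -0.94 on log2(TPM + 1) with a standard error of 0.17.

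In the RV, Setdb2 was at 8.28, 8.21 and 5.76 TPM in WT-PLN hearts. It was at 1.80, 1.57 and 1.48 TPM in R14del-PLN hearts. Again no R14del-PLN sample reached a WT-PLN sample, with means of 1.62 ± 0.164 against 7.42 ± 1.44 TPM (SD, n = 3 each). The mean was 4.59-fold lower, a difference of -1.67 on log2(TPM + 1) with a standard error of 0.17.

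Over all 12526 genes tested with limma, 0.519% were called between genotypes in the LV and 0.271% in the RV, where a call needed a 1.5-fold change and 0.05 or less after Benjamini-Hochberg adjustment. Groups did not overlap in 11% of genes in the LV and 11% in the RV. Of the 5 members tested, Setdb2 was past both thresholds in both ventricles, which restates the choice of the group and from which nothing is read. In the LV it was not past them without LV-WT replicate 2, LV-R14del replicate 1 or LV-R14del replicate 2, where the log2 difference was -0.80, -0.90 and -0.92. In whole-tissue RNA, fewer cells that hold a transcript and less of it per cell cannot be told apart.

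**Figure D1:**
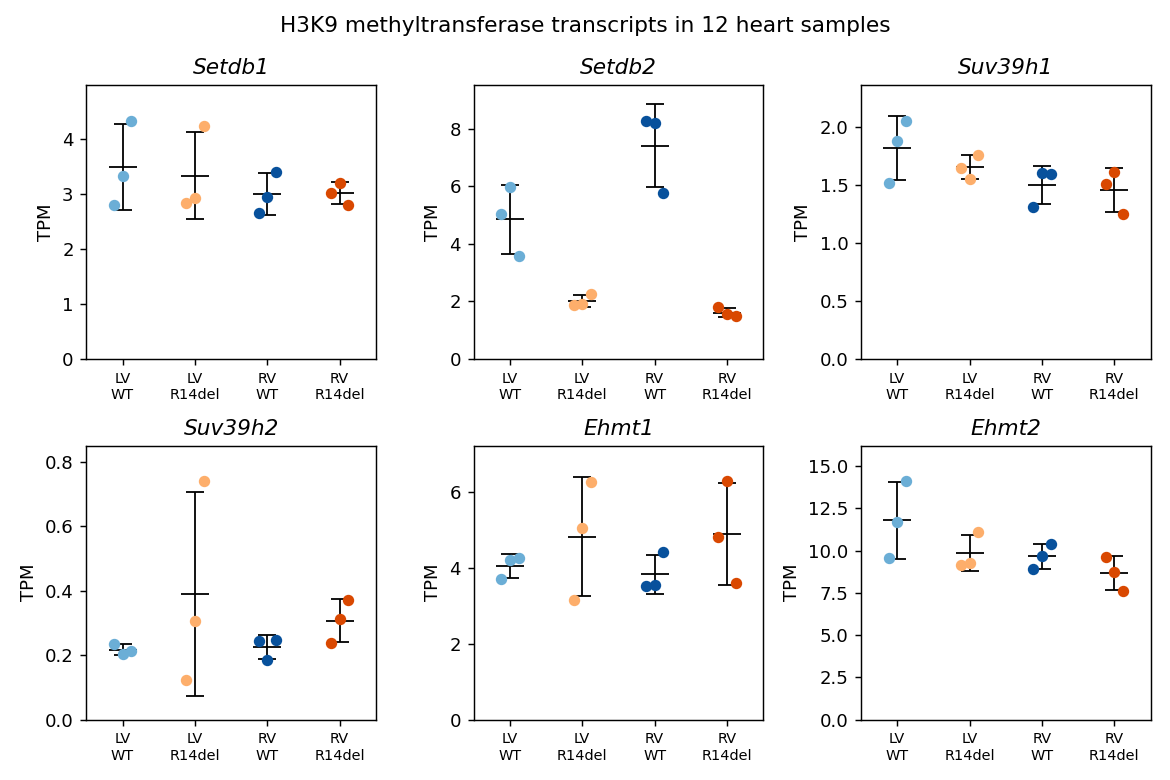
The 6 methyltransferases in TPM (vertical axis, linear from 0, a scale of its own for each gene) in the 12 samples, by ventricle and genotype. Points are samples, and the horizontal mark and bars are the mean and SD of 3 samples. Setdb2 is the panel in which WT-PLN and R14del-PLN points are apart, at 3.57 TPM or more against 2.25 TPM or less.

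Setdb1, the closest relative of Setdb2 in the group, lies on chromosome 3 from 95323525 to 95357202. In the LV, Setdb1 was at 2.80, 3.33 and 4.33 TPM in WT-PLN and 2.82, 2.92 and 4.23 TPM in R14del-PLN hearts. Its RV values were 2.65, 2.93 and 3.39 TPM for WT-PLN and 3.02, 3.20 and 2.80 TPM for R14del-PLN hearts. The ranges overlapped in both ventricles, with R14del minus WT at -0.05 in the LV and 0.01 in the RV on log2(TPM + 1) (SE 0.16 each). The ends of Setdb1 and Cers2, a ceramide synthase gene on the other strand, overlap, and it is not stated whether strand was used in counting.

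The ratio of Setdb2 to Setdb1 within each sample does not depend on the scaling of that sample. The LV ratios averaged 1.47 ± 0.561 in LV-WT and 0.618 ± 0.0753 in LV-R14del (SD, n = 3 each), with ranges of 0.824 to 1.80 and 0.531 to 0.663. The RV ratios were 2.54 ± 0.747 and 0.538 ± 0.0534, with ranges of 1.70 to 3.12 and 0.490 to 0.595. Setdb2 was above Setdb1 in 5 of 6 WT-PLN samples and below it in 6 of 6 R14del-PLN samples. The samples so counted are not all independent, since LV and RV samples pair by number in WT-PLN hearts. These counts also rest on the genotype difference by which Setdb2 was chosen.

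Ehmt1 lies on chromosome 2 from 24789928 to 24919614 and Ehmt2 on chromosome 17 from 34898469 to 34914052. In the LV, Ehmt1 was at 3.70, 4.20 and 4.27 TPM in WT-PLN and 3.17, 5.05 and 6.26 TPM in R14del-PLN hearts. Its RV values were 3.53, 3.55 and 4.42 TPM in WT-PLN and 4.83, 6.28 and 3.60 TPM in R14del-PLN hearts. R14del-PLN samples were the more scattered and overlapped WT-PLN samples in both ventricles, with differences of 0.17 in the LV and 0.27 in the RV on log2(TPM + 1) (SE 0.20 each).

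In the LV, Ehmt2 was at 9.57, 11.7 and 14.1 TPM in WT-PLN and 9.16, 9.30 and 11.1 TPM in R14del-PLN hearts. Values in the RV were 8.94, 9.66 and 10.4 TPM in WT-PLN and 9.65, 8.75 and 7.62 TPM in R14del-PLN hearts. The ranges overlapped, with differences of -0.23 in the LV and -0.14 in the RV on log2(TPM + 1) (SE 0.15 each). The ratio of Ehmt2 to Ehmt1, the partners in the G9a and GLP heterodimer, was 2.89 ± 0.367 in LV-WT and 2.17 ± 0.627 in LV-R14del. The RV ratios were 2.54 ± 0.183 in RV-WT and 1.84 ± 0.387 in RV-R14del (SD, n = 3). The ranges were 1.77 to 2.89 in LV-R14del against 2.59 to 3.30 in LV-WT, and 1.39 to 2.12 in RV-R14del against 2.35 to 2.72 in RV-WT. The difference in this ratio was not tested, and ranges of single genes did not overlap in 11% of all genes in the RV.

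Suv39h1 lies on the X chromosome from 8061171 to 8074760 and is overlapped by the antisense gene Gm14820. In the LV it was at 1.52, 1.88 and 2.06 TPM in WT-PLN and 1.65, 1.55 and 1.76 TPM in R14del-PLN hearts. Its RV values were 1.31, 1.60 and 1.60 TPM in WT-PLN and 1.51, 1.62 and 1.25 TPM in R14del-PLN hearts. The groups overlapped, with differences of -0.08 in the LV and -0.03 in the RV on log2(TPM + 1) (SE 0.12 each).

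Suv39h2 lies on chromosome 2 from 3455815 to 3475031 and overlaps Dclre1c, a DNA repair nuclease gene, which had a mean of 1.05 TPM. Suv39h2 ranged from 0.184 to 0.249 TPM over the 6 WT-PLN samples. In R14del-PLN hearts it was at 0.122, 0.307 and 0.740 TPM in the LV and 0.238, 0.313 and 0.373 TPM in the RV. The ranges overlapped in both ventricles, and the highest value of the 12 was LV-R14del replicate 3, which also had the lowest share of mitochondrially encoded transcripts. Its differences of 0.17 in the LV and 0.09 in the RV on log2(TPM + 1) come from a model of all 22948 genes above 0. Without LV-R14del replicate 3 the difference in the LV was -0.01.

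**Figure D2:**
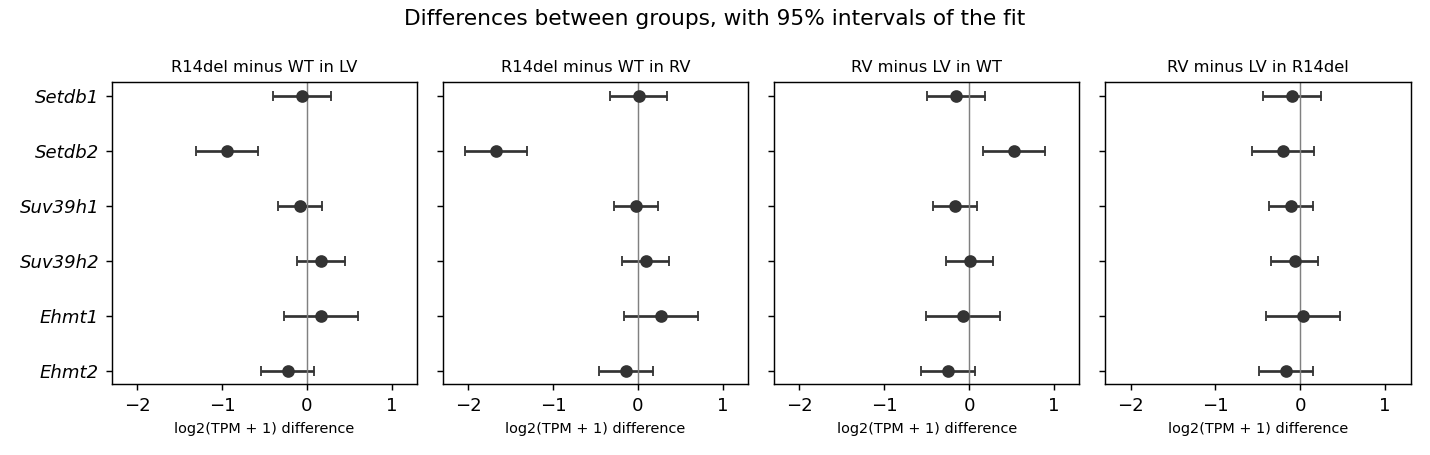
Differences on log2(TPM + 1) (horizontal axes) of the 6 genes in 4 comparisons, with points for the limma estimate and bars for its 95% interval. Setdb2 is far left of 0 between genotypes (-0.94 and -1.67) and right of 0 for RV minus LV in WT-PLN hearts (0.53), while the intervals of the other 5 genes include 0 in all panels.

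The summed level of the 6 genes was 26.2 TPM in LV-WT (range 22.8 to 28.5) and 22.1 TPM in LV-R14del (18.8 to 26.3), with ranges that overlap. For the RV the sum was 25.6 TPM in RV-WT (25.0 to 26.1) and 20.0 TPM in RV-R14del (17.1 to 21.7), with ranges that do not. Without Setdb2, the sum of the other 5 was 21.4 against 20.1 TPM in the LV and 18.2 against 18.4 TPM in the RV. Setdb2 made up 18.5% of the summed level in LV-WT and 28.9% in RV-WT, compared with 9.13% in LV-R14del and 8.09% in RV-R14del.

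The difference between ventricles was not used to choose the genes. In WT-PLN hearts, Setdb2 was higher in the RV than in the LV sample of the same number in 3 of 3 pairs, by 1.65-fold, 1.38-fold and 1.61-fold. The ranges of the groups overlapped, since LV-WT replicate 2 (5.96 TPM) was above RV-WT replicate 3 (5.76 TPM). The log2 difference was 0.53 (SE 0.17, 95% interval 0.17 to 0.89), and it did not pass limma's test after Benjamini-Hochberg adjustment (adjusted p = 0.253, unadjusted 0.00753). With the replicate number as a block within genotype, the difference was the same with a standard error of 0.14 (limma, adjusted p = 0.132). That error is estimated from both genotypes, and pairing by number was unclear in R14del-PLN hearts. Between ventricles of WT-PLN hearts 0% of genes were called, 1811 had an unadjusted p under 0.05 and 26.1% did not overlap, and the median over all tested genes was -0.165, so Setdb2 lay on the other side of 0 from the median gene.

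In R14del-PLN hearts, the 3 RV samples held less Setdb2 than any of the 3 LV samples, with means of 1.62 and 2.01 TPM. Of all tested genes, 9.98% had ranges that did not overlap in this comparison. The log2 difference was -0.20 (SE 0.17, 95% interval -0.57 to 0.16, limma adjusted p = 0.921), and 0% of genes were called, with 823 at an unadjusted p under 0.05. Pairing by number was unclear in the R14del-PLN samples, so no pairs are counted there. With the block within genotype, the difference was again -0.20 (limma, adjusted p = 0.847). The interaction of genotype and ventricle was -0.73 (SE 0.24, 95% interval -1.25 to -0.22), with an unadjusted p of 0.00855 and an adjusted p of 1.0 in limma. No gene was called for the interaction (0%), and 127 had an unadjusted p under 0.05. The interaction shares its values with the genotype difference by which Setdb2 was chosen.

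**Figure D3:**
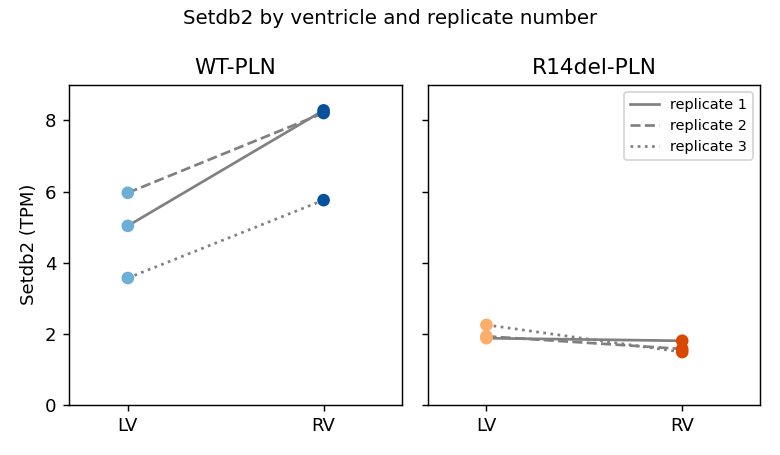
Setdb2 in TPM (vertical axis, linear from 0) in the LV and RV, with lines joining samples of the same replicate number, in WT-PLN (left) and R14del-PLN hearts (right). The 3 WT-PLN lines rise, for example from 3.57 to 5.76 TPM, and the R14del-PLN samples lie at 1.87 to 2.25 TPM in the LV and 1.48 to 1.80 TPM in the RV. The numbers paired samples in WT-PLN hearts, and pairing was unclear in R14del-PLN hearts.

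The other members were not called between ventricles. In WT-PLN hearts, RV minus LV was -0.16 for Setdb1, -0.17 for Suv39h1, -0.07 for Ehmt1 and -0.25 for Ehmt2, with limma adjusted p-values of 0.419 to 0.863. All 4 were on the side of the median gene. In R14del-PLN hearts the differences were between -0.17 for Ehmt2 and 0.03 for Ehmt1, with adjusted p-values of 0.938 to 1.0 in limma.

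The genes next to Setdb2 on chromosome 14 were compared by the 5 nearest listed genes on each side. Cab39l, which starts in the opposite direction, was at 8.02 ± 0.897 TPM in LV-WT and 6.72 ± 0.505 TPM in LV-R14del. Its RV means were 9.51 ± 2.15 TPM for RV-WT and 7.39 ± 1.25 TPM for RV-R14del (SD, n = 3 each). The differences of -0.22 (SE 0.16) and -0.32 (SE 0.16) were below 0 like those of Setdb2, but the ranges overlapped and neither passed limma's test (adjusted p = 0.733 and 0.857). On the other side, Phf11d, the nearest tested gene of a cluster of PHD finger genes, was at 3.26, 2.51, 3.43 and 2.75 TPM in LV-WT, RV-WT, LV-R14del and RV-R14del. Of the 10 neighbours, 4 were tested and 0 called. The processed pseudogene Gm16301 within Setdb2 is listed at 0 in all samples.

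Around the 6 members, 29 of 60 neighbours were tested and 0 were called by limma in any of the 4 comparisons (0 to 2 in each at an unadjusted p under 0.05). Over all 12526 tested genes, 0% to 0.519% were called and 779 to 1811 had an unadjusted p under 0.05. At such shares, 0 calls do not show that the neighbours were unchanged. The lowest difference was that of Hspa1b near Ehmt2, an HSP70 gene singled out after its values were seen, at -2.15 in the LV (SE 0.87, limma adjusted p = 0.433). Hspa1b and its near-identical copy Hspa1a share reads, so their values are uncertain.

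**Figure D4:**
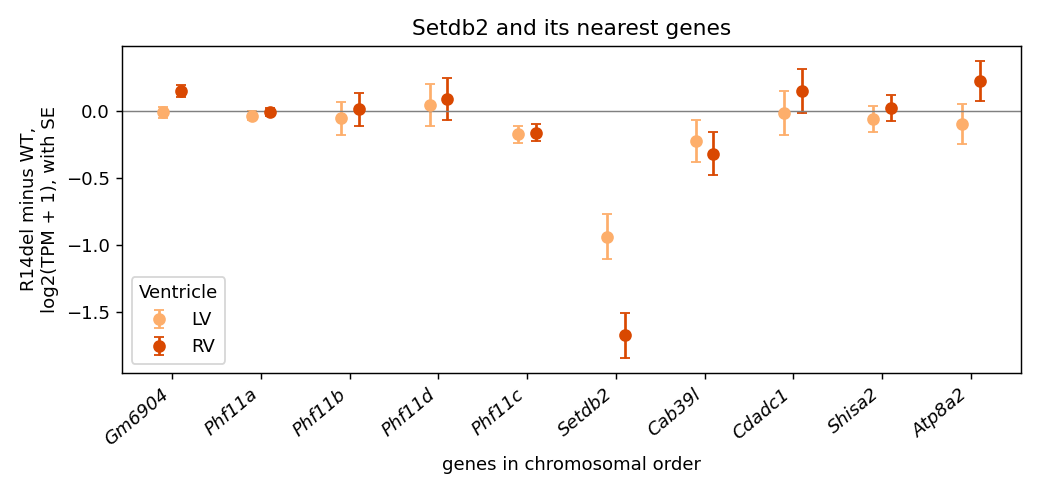
R14del minus WT on log2(TPM + 1) (vertical axis) for Setdb2 and its neighbours in chromosomal order, with points for the estimate in each ventricle and bars for the standard error. Setdb2 stands at -0.94 and -1.67, and Cab39l at -0.22 and -0.32. Of the neighbours, only Phf11d, Cab39l, Cdadc1 and Atp8a2 reached a mean of 0.5 TPM, and the others come from the model of all genes above 0.

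Genes that act with the H3K9 methyltransferases were read from fixed lists. Over all 12526 tested genes, 0.519% were called between genotypes in the LV and 0.271% in the RV. An unadjusted p under 0.05 was found for 1203 and 779 of them. At these shares, 0 calls in a list do not show that its genes were unchanged. The partner list holds genes whose products recruit or stabilize the enzymes, and also Prdm2, Mecom and Prdm16. Of its 12 genes, 11 were tested and 0 were called by limma in either ventricle (0 and 1 at an unadjusted p under 0.05). Their median difference was -0.04 in the LV and 0.18 in the RV, where 9 of 11 were above 0, against -0.0865 and -0.00338 over all tested genes. Trim28, the highest of them and the corepressor that recruits Setdb1, was at 22.1 ± 3.79 TPM in LV-WT and 20.0 ± 2.14 TPM in LV-R14del. In the RV, Trim28 was at 20.3 ± 0.678 TPM in WT-PLN and 16.5 ± 1.04 TPM in R14del-PLN hearts, a difference of -0.28 (limma adjusted p = 0.823).

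Of 9 readers, which bind methylated H3K9 or act with proteins that do, all 9 were tested and 0 were called by limma (2 in the LV and 0 in the RV at an unadjusted p under 0.05). Cbx3, which encodes the heterochromatin protein HP1 gamma, was at 28.9 ± 1.83 TPM in LV-WT and 20.8 ± 1.34 TPM in LV-R14del, a difference of -0.46 that did not pass (limma adjusted p = 0.0843). In the RV it was at 25.7 ± 0.492 and 24.6 ± 1.20 TPM, a difference of -0.06. Of 11 demethylases, 10 were tested and 0 were called by limma (1 and 0 at an unadjusted p under 0.05), with medians of -0.12 and -0.01. Kdm1a, which removes mono- and dimethylation, was at 9.59 TPM in LV-WT and 8.41 TPM in LV-R14del, and at 7.62 and 8.64 TPM in the RV.

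Of 28 other genes that encode SET-domain proteins, all were tested and 0 were called by limma (2 in each ventricle at an unadjusted p under 0.05). Their differences ran from -0.45 to 0.29 in the LV and from -0.24 to 0.35 in the RV, beside -0.94 and -1.67 for Setdb2, which unlike these genes was chosen for its difference. Smyd1, a methyltransferase of heart and skeletal muscle, was the most abundant at 141 ± 10.7 TPM in LV-WT and 149 ± 26.7 TPM in LV-R14del. Its RV means were 131 ± 11.4 and 137 ± 5.23 TPM.

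Lists for the background links of Setdb2 were also read. Of 10 interferon response genes, 9 were tested and 0 were called by limma (1 and 2 at an unadjusted p under 0.05), with medians of -0.13 in the LV and 0.10 in the RV. The 7 genes for the glucocorticoid receptor and its targets were chosen with results of these data known and so are no independent evidence. Of these, 4 were called lower by limma in the LV and 3 in the RV, and 5 were below 0 in each ventricle. Over all tested genes the called shares were 0.519% and 0.271%. Tsc22d3, the glucocorticoid-induced leucine zipper, fell by 1.20 in the LV and by 1.14 in the RV on log2(TPM + 1) (limma adjusted p = 0.0023 and 0.00422). Per1 and Zbtb16 also fell in both ventricles, and Fkbp5 fell by 1.20 in the LV (adjusted p = 0.0191) and was at -0.94 in the RV (limma adjusted p = 0.0944). Nr3c1, the receptor itself, was at 0.18 and 0.27. To complete the list, Sgk1 was at -0.72 and -0.47 and Insig2 at 0.0002 and 0.215, and neither was called. Without RV-R14del replicate 3, which was sequenced in another run than the other 11 libraries, 1 of the 7 was called in the RV.

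**Figure D5:**
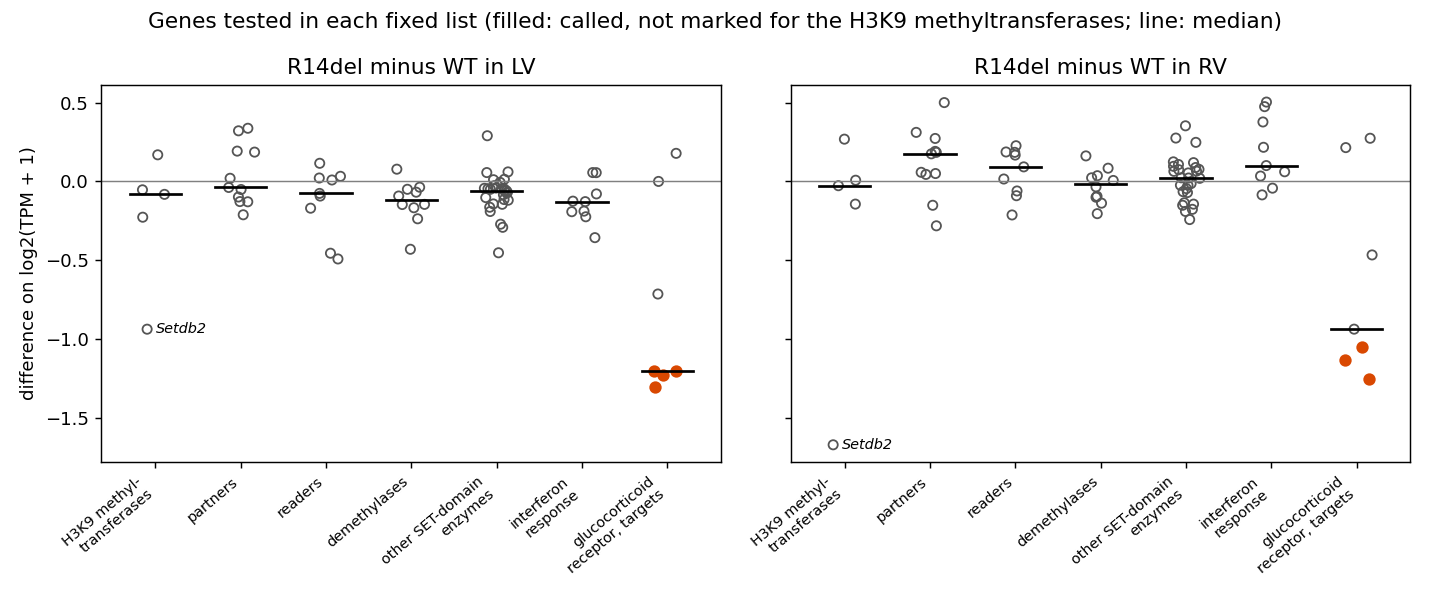
R14del minus WT on log2(TPM + 1) (vertical axis) for the tested genes of each list in the LV (left) and RV (right), where points are genes, filled points were called (not marked in the first list) and lines are list medians. Setdb2, on which the first list was chosen, is named at -0.94 and -1.67 without a mark for a call. The 4 and 3 filled points at the right of each panel are glucocorticoid targets.

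Over the 12 samples, the genes with the pattern most like that of Setdb2 were Klf15 (Pearson r = 0.912 on log2(TPM + 1)), Rpl34 (0.910), Tsc22d3 (0.908), Rasgef1b (0.905) and Amd2 (0.895). The points share their libraries and genotypes, so genes lower in R14del-PLN hearts are favoured by this measure. Rpl34 and Amd2 have near-identical copies in the genome, so their values are uncertain. The order of ventricles was less alike: the mean of Klf15, a Kruppel-like transcription factor, was 30.4 TPM in LV-WT and 29.8 TPM in RV-WT. Rasgef1b, a Ras exchange factor gene, had 7.92 and 9.28 TPM there. Among the other members, the likeness to Setdb2 was -0.0917 for Setdb1, 0.0684 for Suv39h1, -0.436 for Ehmt1 and 0.288 for Ehmt2.

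After the group means were removed, a different 5 genes were most like Setdb2 over the 12 samples: Rerg (0.931), Hist1h2bk (0.926), Gm45551 (0.904), Hist1h4i (0.899) and Txnip (0.893). Hist1h2bk and Hist1h4i are histone genes, and Txnip encodes thioredoxin-interacting protein. None of the 5 was called between genotypes. They are the highest of 12526 tested genes, and 8 residual degrees of freedom remain once group means are removed. High values are then found without any link, so none is read from them. The likeness of the other members to Setdb2 was then between -0.384 for Setdb1 and -0.0216 for Ehmt1.

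Features of the libraries were set beside these values. Markers of ventricular cardiomyocytes were high in every group (summed 28300 to 43000 TPM, with Myl2 the highest). Of 33 marker genes in 7 lists, 0 were called by limma in any comparison (5 to 8 at an unadjusted p under 0.05 between groups). Between genotypes, 7 of the 33 were under 0.05 in the LV and 5 in the RV. Over all 12526 tested genes, 1203 and 779 were, which is a smaller share. Red cell genes gave 3 of these markers in each ventricle. The lack of calls therefore does not show an equal cell make-up. All 5 fibroblast markers were below 0 between genotypes in both ventricles (medians -0.33 in the LV and -0.17 in the RV). Of 5 smooth muscle and pericyte markers, 4 were below 0 in the LV and 1 in the RV (medians -0.34 and 0.19). Endothelial medians were -0.08 and 0.01. The part of these cells in the difference of Setdb2 was not tested. Macrophage markers, of interest because Setdb2 has been studied in these cells, summed to 49.0 to 69.6 TPM in LV-WT and 48.4 to 57.6 TPM in LV-R14del. In the RV they summed to 44.1 to 54.1 TPM in WT-PLN and 37.4 to 61.9 TPM in R14del-PLN hearts, with overlap in both ventricles. Of these 5 genes, C1qa was the highest, and Cd163, a scavenger receptor of resident macrophages, was apart between genotypes. Cd163 was at 5.23 to 7.45 TPM in LV-WT and 2.82 to 4.25 TPM in LV-R14del, and at 6.56 to 7.96 TPM in RV-WT and 2.50 to 4.54 TPM in RV-R14del. Its differences of -0.75 and -0.81 on log2(TPM + 1) did not pass (limma adjusted p = 0.145 and 0.135), and it is named after its values were seen. The ranges of Cd68, Csf1r, Adgre1 and C1qa overlapped between genotypes in both ventricles. The part of macrophages in the difference of Setdb2 was not tested. The 4 red cell genes, led by Hbb-bs, had sums that did not overlap in the RV. These were 1450 to 1730 TPM in WT-PLN and 953 to 1360 TPM in R14del-PLN hearts. Of the single genes, Hba-a2 overlapped there (486 to 544 against 306 to 692 TPM) and the others did not. Ranges of single genes did not overlap in 11% of all genes in the RV. In the LV, the sums of the red cell genes were 2080 to 2310 against 1090 to 2130 TPM. Hba-a1 (359 to 409 against 203 to 320 TPM) and Hbb-bs (919 to 1033 against 459 to 890.5 TPM) did not overlap there. Hba-a2 and Hbb-bt did overlap, and 11% of all genes had no overlap in the LV. The part of red cells in the difference of Setdb2 was not tested. Atrial markers, led by Nppa, ranged widely within groups, from 45.6 to 521 TPM in RV-R14del. Transcripts from the Y chromosome (Eif2s3y, Ddx3y, Uty and Kdm5d) summed to 0.284 and 0.250 TPM in WT-PLN replicate 1 of LV and RV, against 43.5 to 63.7 TPM in R14del-PLN samples, whereas the study describes male mice. Without these 2 libraries the difference of Setdb2 was -0.91 in the LV and -1.60 in the RV. Mitochondrially encoded transcripts held 37.3% to 54.5% of all TPM.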

How the data were processed

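The authors prepared polyA stranded libraries and mapped reads to GRCm38 with CLC Genomics Workbench. They deposited 1 TPM value per gene and sample. The program, annotation and strand setting behind the TPM values are not given in the sources used here. Depth is unknown, so no counting error could be given. Groups were taken from titles, and the run of each library from the name of its file. TPM was tested as log2(TPM + 1) with limma 3.58.1 in R 4.3.3 (4 group means, trended prior, degrees of freedom 8 residual and 5.15 prior) over 12526 genes that averaged 0.5 TPM or more. Adjustment was by Benjamini-Hochberg. The pseudocount of 1 understates changes of low genes. The model was checked on simulated data: for R14del minus WT in RV, with 12526 genes and a log2 change of 2 added to 200, it called 198 of these and 10 of the others. This change is larger than any difference given for a member with the pseudocount of 1. It was added only to genes averaging above 1 on log2(TPM + 1). The simulated noise was independent between samples. Recovery of smaller changes was not checked. Gene positions are from GENCODE vM21.

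The members and lists were chosen with earlier results of these data known. The genes named were all members, genes called in a list and the highest of each list, called neighbours, and the 5 genes most like Setdb2 by each measure. A gene that this rule names is not reported here. Replicate numbers paired the LV and RV samples in WT-PLN hearts, where deviations from group means correlated at 0.657, 0.321 and 0.457. In R14del-PLN hearts they were 0.389, 0.230 and 0.0542. LV replicate 3 correlated more with RV replicate 2 there (0.122), so pairing by number is unclear. Between genotypes the numbers did not pair samples. Protein sequences were not used here. Figures were drawn with Python 3.11.15, pandas 2.3.3 and matplotlib 3.10.9.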

Additional observations from a re-analysis of the deposited data

Results flagged for a closer look

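Setdb2 was higher in the RV than in the LV sample of the same number in 3 of 3 WT-PLN pairs. The ranges of LV-WT and RV-WT overlapped, and the share of all genes higher in 3 of 3 pairs was not counted. In R14del-PLN hearts, all 3 RV samples were below all 3 LV samples. Ranges did not overlap in 9.98% of all tested genes in that comparison. Neither difference between ventricles passed limma's test after adjustment (0.53, adjusted p = 0.253, and -0.20, adjusted p = 0.921). The difference between these effects was -0.73 on log2(TPM + 1) (SE 0.24). It did not pass limma's interaction test after Benjamini-Hochberg adjustment (adjusted p = 1.0, unadjusted 0.00855), and the adjusted p was 0.751 to 1.0 over 24 alternatives. The replicate numbers paired samples in WT-PLN hearts, while pairing was unclear in R14del-PLN hearts. Both effects share samples with the genotype comparison by which Setdb2 was chosen.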

How the results depend on the processing

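The difference of Setdb2 between genotypes stayed below 0 in all 24 alternatives, from -1.20 to -0.80 in the LV and from -2.12 to -1.60 in the RV on the log2 scale. With 1 sample left out, it ran from -1.11 to -0.80 in the LV and -1.82 to -1.60 in the RV. With a pseudocount of 0.5 it was -1.89 in the RV, and with 0.1 it was -1.20 in the LV and -2.12 in the RV, since a smaller pseudocount shrinks low values less. The number of members called in the LV was 0 in place of 1 with no filter on low values, quantile normalization, upper quartile scaling, or only the 6 samples of the comparison. With 1 sample left out it was 0 to 1. The cause of these changes was not tested. These counts describe Setdb2, on which the group was chosen, and support nothing. The replicate number as a replicate block gave -0.94 (SE 0.15) and -1.67, and it changed no call of a member. Genes called among all tested ranged from 19 to 231 in the LV and 14 to 88 in the RV, against 65 and 34. Without the filter they were 22 and 17, with the replicate block 119 and 62, after quantile normalization 104 and 85, with upper quartile scaling 99 and 88, and without mitochondrially encoded genes 95 and 73. Without both WT-PLN replicate 1 samples they were 231 and 88. Between ventricles of WT-PLN hearts, 12 genes were called with the block within genotype and 0 without it. TPM holds no depth, so the counting error of no member is known.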
